A study of Mus musculus with 9 samples.

Results

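The genes described here are the interleukin-1 (IL-1) family cytokines Il1a, Il1b and Il33, the antagonist Il1rn, the receptor chains Il1r1, Il1rl1 and Il1rap, and the adaptor Myd88. They were taken by symbol from the table of gene counts, which holds all 8 of them among 24062 genes. Of the 8, 6 passed a filter on low counts and were tested, as did 15369 genes in all, and Il1a and Il1b did not pass. The samples were mouse embryonic fibroblasts of the C57BL/6 strain, grown from embryo tissue and made senescent by gamma irradiation. Senescence is a state in which cells stop dividing but stay alive, and whether some cells still divided was not tested. At day 10 after irradiation the cells were infected with a lentivirus carrying a short hairpin RNA. The groups, 3 in number, carried shScr (scrambled, the control), shRela-1 or shRela-2. The latter hairpins independently target Rela, the gene of p65, a subunit of NF-kB, a transcription factor of inflammatory genes. Each group had 3 samples, and irradiation, senescence and lentiviral infection were common to all 9, so no group here shows the level before irradiation. The comparison asks which transcripts depend on p65 in senescent fibroblasts.

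IL-1 alpha and IL-1 beta bind the receptor IL1R1, and IL-33 binds the related receptor ST2, the product of Il1rl1. Both ligand-bound receptors recruit the shared chain IL1RAP, and the complex then recruits the adaptor MYD88, which activates kinases that release NF-kB. In senescent cells IL-1 alpha at the cell surface is known to drive secretion of inflammatory proteins, and IL1RN, the IL-1 receptor antagonist, occupies IL1R1 without signalling. Soluble forms of ST2 and IL1RAP, made from shorter transcripts, are known decoys.

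Depth was 49774667 to 67963506 counts per sample. Rela itself fell, from 85.2 ± 1.84 CPM in controls to 13.6 ± 0.487 CPM under the first hairpin and 13.9 ± 0.768 CPM under the second (SD, n = 3). CPM is the count scaled to a common library size. The difference between the hairpins was 0.03 on the log2 scale with a 95% interval from -0.09 to 0.14. All 10 fibroblast markers were detected, with a summed level of 34677 to 39508 CPM. Whether replicates are separate cultures or embryos is not stated, and p-values therefore reflect the spread among these libraries alone, which may be technical. Sample titles hold a dataset tag for shScr and none for shRela, and any batch that goes with it cannot be told apart from the hairpin. Same-numbered samples deviated together from their group means, so the fit with the replicate number as a block is given beside a described result where it changed the call or moved a count by over 1.5 times. The RNA came from whole cultures, in which fewer cells of a type and less RNA per cell cannot be told apart.

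The start regions of Il1rl1, Il1r1 and Il1rap are shown because these receptor genes differ in the composition of these regions, because Il1rl1 starts at alternative sites and because an Il1r1 window holds an NF-kB match. In each, the 250 bases before a RefSeq start (GRCm38.p6, plus strand, 5′ to 3′) are in lower case, with any match to the NF-kB consensus in capitals. The Il1rl1 starts lie 10059 bases apart, the first window at chr1:40429320-40429569 and the second at chr1:40439379-40439628. The Il1r1 window at chr1:40266336-40266585 belongs to the second of the Il1r1 starts, and the Il1rap window lies at chr16:26581455-26581704.
Il1rl1 first start: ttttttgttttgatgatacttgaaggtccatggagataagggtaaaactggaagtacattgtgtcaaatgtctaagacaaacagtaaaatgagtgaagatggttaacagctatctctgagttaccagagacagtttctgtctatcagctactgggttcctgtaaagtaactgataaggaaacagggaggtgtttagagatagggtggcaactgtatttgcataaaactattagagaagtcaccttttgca
Il1rl1 second start: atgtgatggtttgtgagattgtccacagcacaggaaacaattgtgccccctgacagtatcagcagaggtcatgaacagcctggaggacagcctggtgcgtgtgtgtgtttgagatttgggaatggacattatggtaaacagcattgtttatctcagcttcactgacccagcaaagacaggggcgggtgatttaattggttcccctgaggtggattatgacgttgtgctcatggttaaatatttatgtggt
Il1r1 second start: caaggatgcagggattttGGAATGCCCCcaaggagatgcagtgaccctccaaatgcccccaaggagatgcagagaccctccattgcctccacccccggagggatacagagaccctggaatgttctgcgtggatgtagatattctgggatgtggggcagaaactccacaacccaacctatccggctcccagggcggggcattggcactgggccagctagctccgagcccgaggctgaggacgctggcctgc
Il1rap: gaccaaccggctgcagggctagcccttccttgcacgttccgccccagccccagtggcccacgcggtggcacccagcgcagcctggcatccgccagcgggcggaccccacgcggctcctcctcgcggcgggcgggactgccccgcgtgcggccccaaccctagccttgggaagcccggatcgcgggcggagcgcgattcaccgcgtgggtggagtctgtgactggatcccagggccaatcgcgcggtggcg
Counts per gene do not separate transcripts from the Il1rl1 starts, nor the soluble from the membrane form.

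RefSeq held 13 windows for the 8 genes, each of 300 bases with 250 before and 50 after the start. The motifs searched, on both strands, were the NF-kB consensus, TGANTCA (the AP-1 site, with N for any base) and TATAAA. Of the 8 genes, 1 (Il1r1) had an NF-kB match, which begins 232 bases before its second start, and 8.46% of all 32851 windows hold one. TGANTCA occurred in a window of Il1rn and in that of Il1a, against 7.81% of all windows. TATAAA occurred in windows of Il1a, Il1b, Il1rn, Il33 and Myd88, against 13.6% of all windows. These shares are per window, and a gene with more than 1 window has more chances of a match, so gene counts are not directly comparable with them. A match is a description of these letters and not a binding site, and NF-kB sites outside the windows were not searched. The Il1rap window was rich in CG dinucleotides, with 33 of them and 72.0% G or C, against medians of 7 and 52.7% over all windows. The Il1rl1 windows had few, with 1 and 3 CG dinucleotides and 38.7% and 44.7% G or C. The RefSeq windows of Il1r1 held 5 and 14.

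In control cells the receptor transcripts were more abundant than those of the agonist ligands. Levels between genes are compared as CPM per kilobase of exon in shScr (mean ± SD, n = 3). Il1rl1 stood at 48.5 ± 7.74, the highest of the 8 genes, and by CPM it lay at the 97.1 percentile of all genes tested. Myd88 followed at 11.3 ± 0.0966 and Il1r1 at 8.38 ± 0.598. The shared chain Il1rap stood at 2.42 ± 0.0499 and the antagonist Il1rn at 2.06 ± 0.992, whose samples overlapped those of Il1rap. Il33, a nuclear cytokine released by damaged cells, was lower at 0.703 ± 0.0585. Il1b and Il1a were lowest, at 0.0803 ± 0.0293 and 0.0770 ± 0.0123, and did not differ beyond their spread. The same order held in shScr when the longest transcript of each gene was used as its length. In single libraries of the 9, the ratio of Il1rl1 to Il1r1 per kilobase ran from 3.65 to 6.33, and that of Il1r1 to Il1rap from 2.63 to 4.67. Il1rn exceeded Il1b per kilobase by 11.0 to 93.4 times, where Il1b rested on 2 to 12 counts per library.

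**Figure D1:**
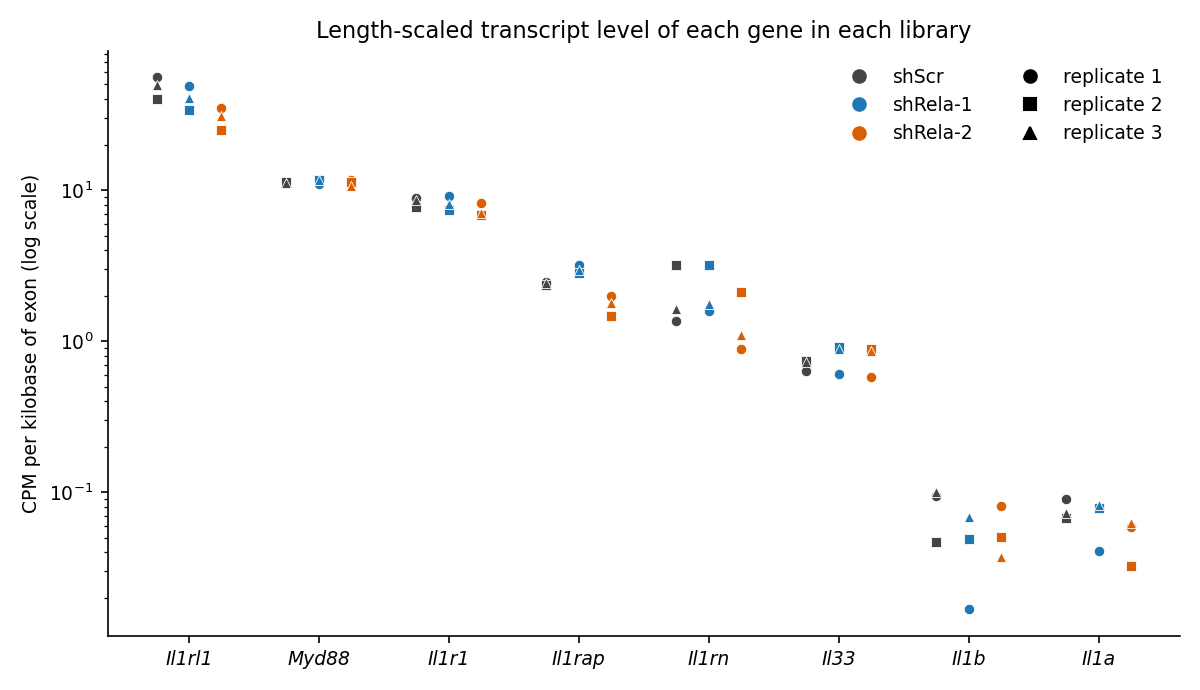
Each point is 1 library, with its level in CPM per kilobase of exon on a log scale, coloured by hairpin and shaped by replicate number. Il1rl1 is highest in all 9 libraries, and Il1a and Il1b lie below every other gene.

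Il1rl1, which encodes the IL-33 receptor ST2, fell with shRela-2 to 62.5% of the shScr mean. In mm10 it occupies 40429570 to 40465415 of chromosome 1 (plus strand), within a row of receptor genes in the order Il1r2, Il1r1, Il1rl2, Il1rl1, Il18r1 and Il18rap. Its level was 384, 278 and 341 CPM in shScr replicates 1 to 3, 339, 233 and 279 CPM with shRela-1, and 242, 173 and 213 CPM with shRela-2. The shRela-2 samples all lay below the shScr samples, whereas the shRela-1 samples overlapped both other groups. Replicate 2 was the lowest sample and replicate 1 the highest in each group.

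The mean level of Il1rl1 was 335 ± 53.4 CPM in shScr, 283 ± 53.3 with shRela-1 and 209 ± 34.7 with shRela-2 (SD, n = 3). By edgeR's quasi-likelihood test, Benjamini-Hochberg adjusted over all genes tested, the log2 fold change with shRela-2 was -0.68 ± 0.16 (SE, adjusted p = 0.00836), and the call held on leaving out any 1 of the 9 libraries. With shRela-1 it was -0.24 ± 0.16 (edgeR adjusted p = 0.319) and was not called. Within replicate numbers, the shRela-1 sample was lower than the shScr sample in 3 of 3 pairs, by -0.18, -0.26 and -0.29 on the log2 scale, and with the block the change of -0.24 ± 0.028 was called (edgeR adjusted p = 4.14e-07). The differences with shRela-2 were nearly equal in the pairs, at -0.67, -0.69 and -0.68. Of the 6 tested genes, Il1rl1 was the 1 that was lower in every shRela sample than in its same-numbered shScr sample. The share of all genes tested that were lower in every such pair was not counted.

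Il1rl1 also fell in the mean of both hairpins against shScr, by 0.46 ± 0.14 on the log2 scale (edgeR adjusted p = 0.0331). This call was lost on leaving out replicate 1 (0.139) or 3 (0.111) of shScr, replicate 2 (0.0547) or 3 (0.0683) of shRela-1, or shRela-2 replicate 2 (0.0567) or 3 (0.0569), each an edgeR adjusted p. With all 9 libraries the call held in each alternative, the block among them. The hairpins differed, with Il1rl1 lower under shRela-2 than under shRela-1 by -0.44 ± 0.16 (edgeR adjusted p = 0.0495), close to the threshold of 0.05. That call was lost with other settings: size factors by relative log expression (RLE) gave 0.0508, DESeq2 0.0713 and limma voom 0.0504 as the adjusted p. It was also lost without replicate 3 of shScr (0.0701), replicate 1 (0.174) or 3 (0.0958) of shRela-1, or shRela-2 replicate 2 (0.165) or 3 (0.0980) (edgeR adjusted p). With the block it was -0.43 ± 0.028 (edgeR adjusted p = 2.29e-11).

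Il1rap, which encodes the chain shared by the IL-1, IL-33 and IL-36 receptors, moved in opposite directions with the hairpins. In mm10 it occupies 26581704 to 26730117 of chromosome 16 (plus strand). The levels were 27.8, 26.8 and 27.7 CPM in shScr, 36.2, 32.0 and 33.8 CPM with shRela-1, and 22.7, 16.7 and 20.4 CPM with shRela-2. The 3 groups did not overlap: every shRela-1 sample lay above, and every shRela-2 sample below, every shScr sample. The means were 27.4 ± 0.566, 34.0 ± 2.11 and 19.9 ± 3.02 CPM (SD, n = 3), so the control samples were the most alike.

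Il1rap rose with shRela-1 by 0.31 ± 0.094 on the log2 scale and fell with shRela-2 by 0.46 ± 0.096 (edgeR's quasi-likelihood test, Benjamini-Hochberg adjusted p = 0.0357 and 0.00411). The fall held without any 1 library. The rise was lost on leaving out any shScr library (replicate 1 gave 0.0652, replicate 2 0.100 and replicate 3 0.0882), replicate 1 (0.107) or 3 (0.0857) of shRela-1, or replicate 3 of shRela-2 (0.0512), each an edgeR adjusted p. With all 9 libraries the rise was called in each alternative, the block among them. The direct difference between the hairpins was the most significant of the 6 tested genes, at -0.77 ± 0.095 (edgeR adjusted p = 9.49e-05). In the mean of both hairpins Il1rap stood at -0.08 ± 0.082 (edgeR adjusted p = 0.565), a value that averages opposite changes.

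Il1r1, the signalling receptor for IL-1, differed little between the groups. In mm10 it spans 40225080 to 40317257 of chromosome 1 (plus strand). Its level was 56.0, 49.0 and 55.0 CPM in shScr, 58.0, 47.2 and 51.3 CPM with shRela-1, and 52.7, 43.7 and 44.7 CPM with shRela-2. The groups overlapped, and replicate 1 was highest and replicate 2 lowest in each. The log2 fold change was -0.03 ± 0.089 with shRela-1 (95% interval -0.23 to 0.17) and -0.18 ± 0.089 with shRela-2 (-0.38 to 0.02), neither called by edgeR's quasi-likelihood test (adjusted p = 0.843 and 0.158). Leaving out shRela-2 replicate 1 brought the second to an edgeR adjusted p of 0.0421. The block called it at 9.20e-04, and it called the mean of both hairpins (-0.11 ± 0.036, edgeR adjusted p = 0.0177) and the difference between hairpins (-0.15 ± 0.041, edgeR adjusted p = 0.00452) as well. Under shRela-2, Il1r1 was lower than the same-numbered shScr sample in 3 of 3 pairs, by -0.09, -0.17 and -0.30 on the log2 scale.

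**Figure D2:**
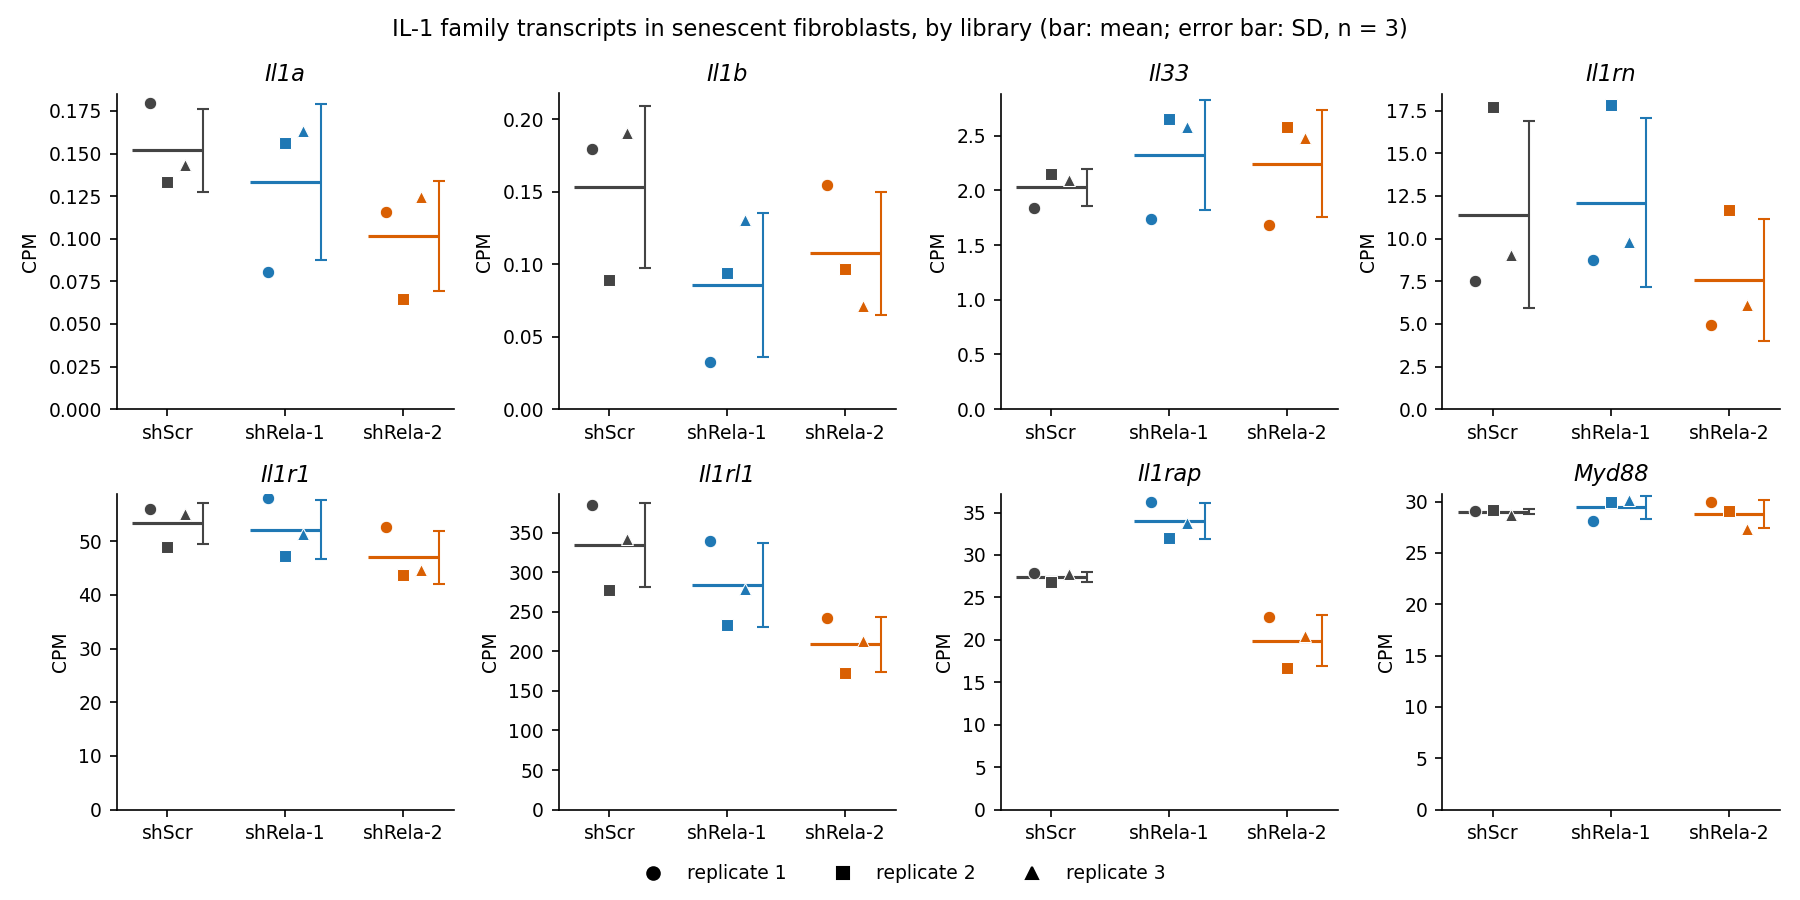
Points are the level in CPM of each of the 8 genes, the untested Il1a and Il1b included, in each library by hairpin and replicate number. The mean is a line and the SD an error bar (n = 3). The Il1rap groups do not overlap, the shRela-2 samples of Il1rl1 lie below those of shScr, and replicate 2 stands highest for Il1rn in every group.

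The IL-1 cytokine genes themselves were close to the limit of detection. Il1a (mm10, chromosome 2, 129299610 to 129309972, minus strand) had 9, 9 and 9 counts in shScr, 5, 10 and 10 under shRela-1, and 6, 4 and 7 under shRela-2. Il1b (129364570 to 129371139 on the same strand) had 9, 6 and 12 counts in shScr, 2, 6 and 8 under shRela-1, and 8, 6 and 4 under shRela-2. The groups overlapped for Il1b, and for Il1a the shRela-2 samples lay below the shScr samples in counts. Neither gene passed the filter on low counts. Without the filter, edgeR's quasi-likelihood test gave adjusted p = 0.892 and 0.544 for Il1a and 0.488 and 0.653 for Il1b, with shRela-1 and shRela-2. Changes in these genes were not detectable at this depth, and the exons of both overlap genes on the other strand (Gm14023 and Il1bos), which the library kit does not separate.

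Il33 was low and did not differ detectably between groups. It spans 29925114 to 29960718 of chromosome 19 (mm10, plus strand). Its level was 1.83, 2.15 and 2.10 CPM in shScr, 1.74, 2.65 and 2.58 CPM with shRela-1, and 1.68, 2.57 and 2.47 CPM with shRela-2. In each group replicate 1 was lowest and replicate 2 highest, and all 3 groups overlapped. The log2 fold change was 0.19 ± 0.20 with shRela-1 (95% interval -0.26 to 0.65) and 0.15 ± 0.21 with shRela-2 (-0.31 to 0.60). Neither was called by edgeR's quasi-likelihood test (adjusted p = 0.555 and 0.647), with or without the block. The receptor for this cytokine, Il1rl1, exceeded it per kilobase by 28.1 to 87.7 times across the 9 libraries.

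Il1rn, the antagonist that competes with IL-1 for its receptor, stood above Il1a, Il1b and Il33 per kilobase in every library. It spans 24336853 to 24351494 of chromosome 2 (mm10, plus strand). Its level was 7.52, 17.7 and 9.01 CPM in shScr, 8.73, 17.8 and 9.78 CPM with shRela-1, and 4.94, 11.7 and 6.11 CPM with shRela-2. Replicate 2 was highest in every group, by 2.35, 2.04 and 2.36 times the lowest sample, and the groups overlapped. With shRela-2 the log2 fold change was -0.59 ± 0.40 (95% interval -1.48 to 0.30), which edgeR's quasi-likelihood test did not call (adjusted p = 0.309). Compared within replicate numbers, however, shRela-2 was lower by -0.60, -0.60 and -0.56 on the log2 scale in replicates 1 to 3. With the block the change was -0.59 ± 0.074 and Il1rn fell (edgeR adjusted p = 1.22e-06). The block also called the mean of both hairpins (-0.24 ± 0.062, edgeR adjusted p = 0.00382) and the difference between hairpins (-0.69 ± 0.074, edgeR adjusted p = 5.85e-08). With shRela-1 the change was 0.08 ± 0.39 and was not called in either fit (edgeR adjusted p = 0.913, and 0.259 with the block).

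Markers of macrophages, which are a known source of IL1RN, moved with replicate number in the same way. All 16 macrophage markers listed were detected, and 16 of 16 were highest in replicate 2 of all 3 groups, against 8.86% of all genes tested (1362 of 15369). Their summed level was 509 to 759 CPM in shScr, 505 to 695 CPM in the shRela-1 libraries and 437 to 675 CPM in the shRela-2 libraries, and lysozyme Lyz2 alone made up 59.7% of the sum. With shRela-2, 1 of the 16 fell, Itgam, an integrin of myeloid cells (-0.54 ± 0.15, edgeR's quasi-likelihood test, adjusted p = 0.0171), where 15.4% of all genes tested fell. With the block 10 of the 16 fell, where 22.2% of all genes did. The count of 1 became 0 without shScr replicate 2, shRela-2 replicate 1 or shRela-2 replicate 3, and 2 without replicate 2 of either shRela group. The median over the 16 was -0.20 on the log2 scale, against -0.00 over all genes tested. With shRela-1, 0 of 16 fell by edgeR, DESeq2 and limma voom, also at an unadjusted p under 0.05, where 12.4% of all genes fell by edgeR's adjusted p. The block gave 1 that fell and 1 that rose, where 18.9% and 20.4% of all genes did. The part of the macrophage markers in the level of Il1rn was not tested. Mast cells and lymphoid cells express Il1rl1, and their marker levels are given here: the 9 mast cell markers summed to 0.763 to 1.75 CPM with Fcer1a at 0, and the 12 lymphoid markers summed to 44.4 to 54.2 CPM, with Cd3d and Ncr1 at 0 in all 9 libraries. Rora, a nuclear receptor, made up most of the lymphoid sum at 35.9 to 45.4 CPM, and the other 11 markers together stood at 8.01 to 10.7 CPM, with the transcription factor Gata3 at 4.03 to 5.78 and the cytokine receptor chain Il2rg at 2.67 to 4.47. With shRela-2 Rora rose by 0.23 ± 0.056 (edgeR's quasi-likelihood test, adjusted p = 0.009996) and Gata3 fell by 0.37 ± 0.12 on the log2 scale (edgeR adjusted p = 0.0343). The Rora call held without any 1 library, and the Gata3 call was lost without replicate 2 (0.0996) or 3 (0.0988) of shScr, or replicate 1 (0.0984), 2 (0.0683) or 3 (0.0744) of shRela-2, each an edgeR adjusted p. Neither was called with shRela-1. With the block Il2rg fell with shRela-1 (-0.32 ± 0.12, edgeR adjusted p = 0.0427). The part of these markers in the level of Il1rl1 was not tested.

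**Figure D3:**
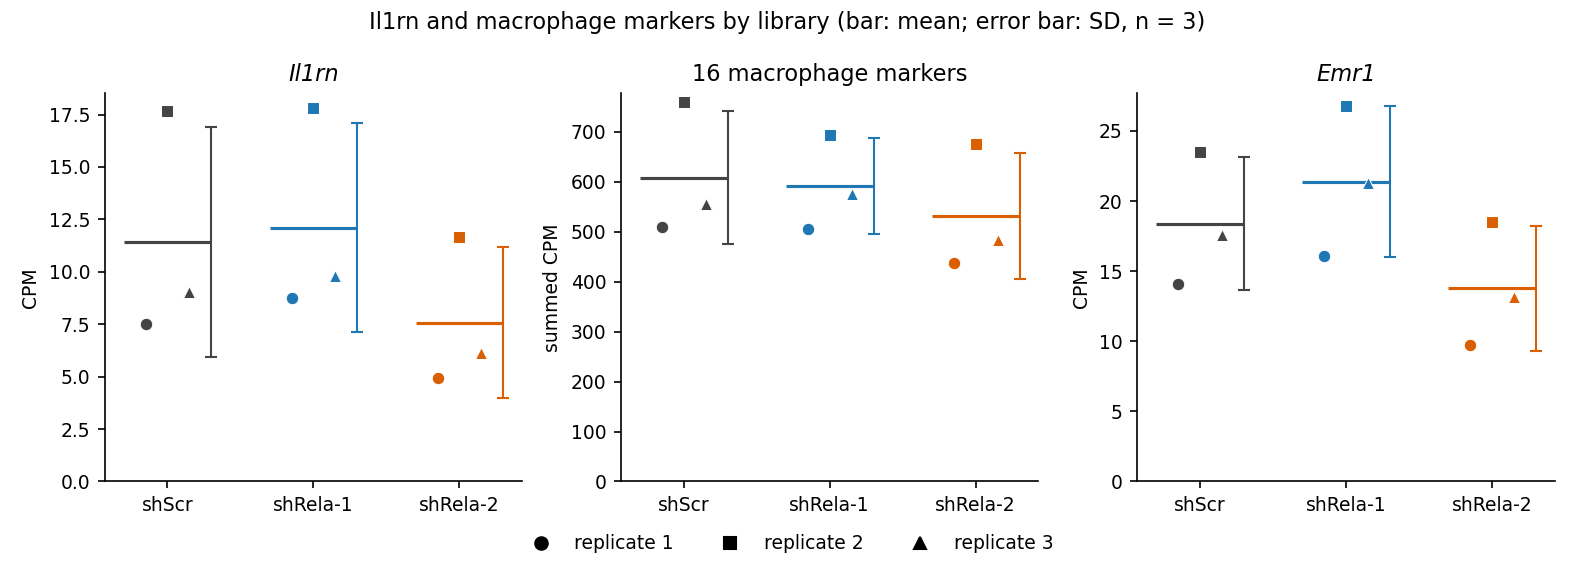
Panels show Il1rn, the summed level of 16 macrophage markers and the macrophage marker Emr1, in CPM, for each library by hairpin and replicate number, with the mean (line) and SD (error bar, n = 3). Replicate 2 is highest in every group of every panel.

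Myd88, the adaptor that carries the signal from all of these receptors to the kinases, stood at nearly the same level in all 3 groups. It spans 119335934 to 119341411 of chromosome 9 (mm10, minus strand). Its level was 29.1, 29.2 and 28.7 CPM in shScr, 28.1, 30.0 and 30.2 CPM with shRela-1, and 30.0, 29.1 and 27.3 CPM with shRela-2. The groups overlapped, and no replicate number was the highest throughout. The log2 fold change was 0.02 ± 0.050 for shRela-1 and -0.01 ± 0.050 for shRela-2 (edgeR's quasi-likelihood test, adjusted p = 0.811 and 0.899). The 95% intervals of these changes were -0.09 to 0.13 and -0.12 to 0.10. Exons of Myd88 overlap those of Acaa1a on the other strand, which stood at 52.6 to 62.2 CPM and was not called, so part of either gene's counts may belong to the other.

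Of the 6 tested genes, 1 rose (Il1rap) and 0 fell with shRela-1, where 24.7% of all genes tested changed, 12.3% up and 12.4% down. None of the 6 fell at an unadjusted p under 0.05 by edgeR, DESeq2 or limma voom either, and with the block 1 fell, Il1rl1, where 18.9% of all genes did. With shRela-2, 0 rose by any of these tools, also unadjusted, and 2 fell (Il1rl1 and Il1rap), where 30.9% of all genes changed, 15.4% in each direction. With the block 4 fell, adding Il1rn and Il1r1, and 22.2% of all genes did. In the mean of both hairpins 1 of 6 fell and 0 rose, where 22.8% of all genes changed, 12.2% down and 10.7% up, and 3 fell with the block, where 19.7% of all genes did. Between the hairpins 2 of 6 were lower with shRela-2, where 39.9% of all genes differed, 19.9% lower and 20% higher, and 4 with the block, where 26.1% were lower. The rise with shRela-1 went from 1 gene to 0 without any shScr replicate, shRela-1 replicate 1 or 3, or shRela-2 replicate 3. The fall in the mean went from 1 to 0 without shScr replicate 1 or 3, or replicate 2 or 3 of either shRela group. The 2 falls between the hairpins became 1 without shScr replicate 3, shRela-1 replicate 1 or 3, or shRela-2 replicate 2 or 3, and by DESeq2, limma voom or RLE scaling. At these numbers the share of called genes in the set cannot be set apart from the background. The median log2 fold change of the 6 was 0.05 for shRela-1 and -0.32 for shRela-2, against 0.00 and -0.00 over all genes tested. Groups did not overlap for 1 of 6 with shRela-1 (Il1rap, all higher, as for 20.1% of all genes) and for 2 of 6 with shRela-2 (Il1rl1 and Il1rap, all lower, as for 21.6%). Between the hairpins Il1rap alone of the 6 did not overlap, all lower with shRela-2, as for 25% of all genes. The comparisons against shScr share its samples.

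**Figure D4:**
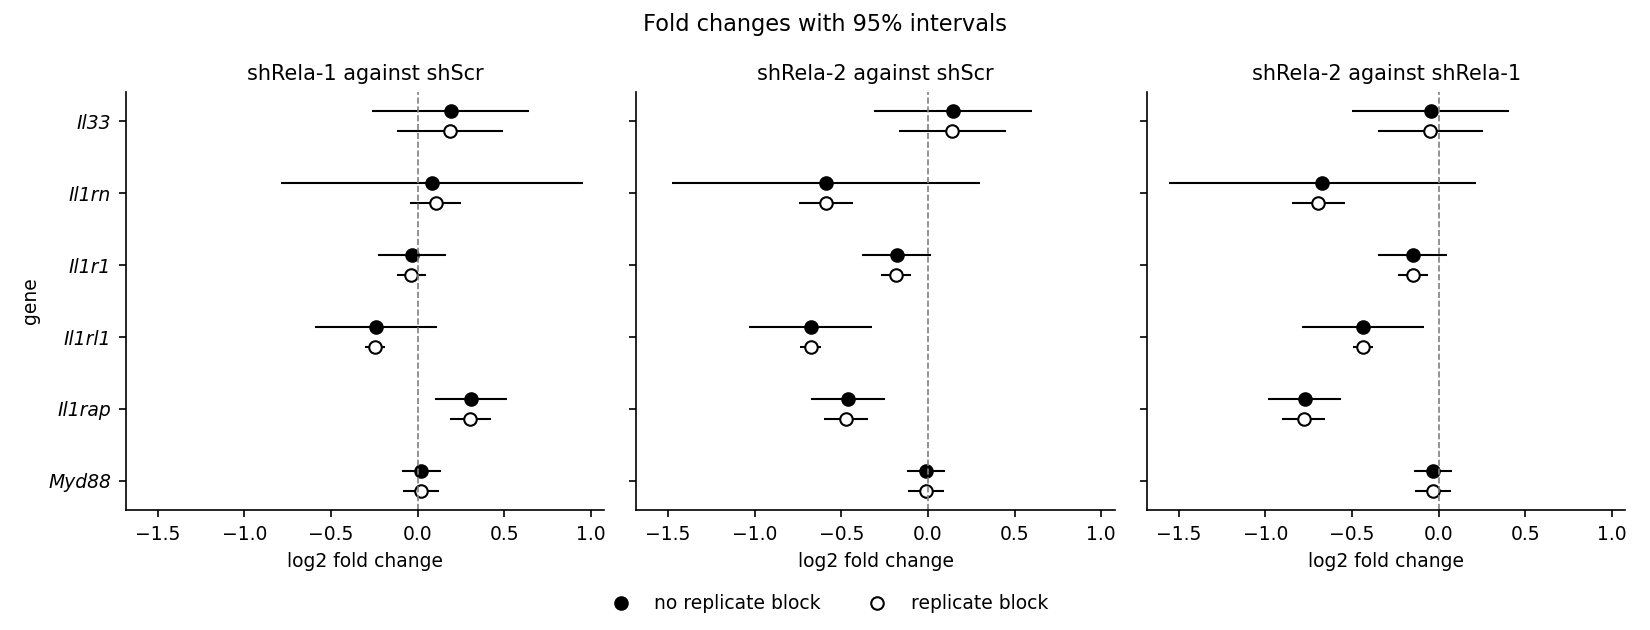
Log2 fold changes of the 6 tested genes in 3 comparisons, with 95% intervals, from the fit without (filled) and with (open) the replicate number as a block. The interval of Il1rn narrows most with the block, and Il1rap lies above 0 with shRela-1 and below 0 with shRela-2.

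Among the other receptors of the family, Il1rl2, the IL-36 receptor and the neighbour of Il1r1 and Il1rl1 on chromosome 1, fell with shRela-1 and not with shRela-2. It stood at 13.2 ± 1.31 CPM in shScr, 7.74 ± 0.618 with shRela-1 and 12.4 ± 0.915 with shRela-2 (SD, n = 3). The change was -0.77 ± 0.097 with shRela-1 (edgeR's quasi-likelihood test, adjusted p = 2.63e-04) and -0.09 ± 0.096 with shRela-2 (edgeR adjusted p = 0.556), and the hairpins differed by 0.68 ± 0.098 (edgeR adjusted p = 2.66e-04). Il1rl2, like Il1rl1, was lower in every shRela sample than in its same-numbered shScr sample. With shRela-2 its levels were 12.5, 11.5 and 13.3 CPM, against 14.1, 11.7 and 13.7 CPM in shScr. The share of all genes with this pattern was not counted. With the block Il1rl2 was called with shRela-1 (edgeR adjusted p = 1.09e-08) and not with shRela-2 (0.341), while its neighbour Il1rl1 was called with both. Il18rap, a chain of the IL-18 receptor, ran from 7.00 to 12.6 CPM and was not called, but with the block it was higher with shRela-2 than with shRela-1 by 0.20 ± 0.077 on the log2 scale (edgeR adjusted p = 0.0353). Its partner Il18r1 stood at 0.116 ± 0.0557 CPM in shScr, the decoy receptor Il1r2 at 0.882 ± 0.279 CPM and the inhibitory receptor Sigirr at 0.231 ± 0.0939 CPM. Il1rapl1 and Il1rapl2, the IL1RAP-like receptors of neurons, had 0 to 10 and 0 to 4 counts per library.

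Of the other ligands and binding proteins, Il18, an inflammasome-dependent cytokine, was low and fell with shRela-1. Its level was 0.937, 1.19 and 1.18 CPM in shScr, 0.660, 0.686 and 0.440 CPM with shRela-1, and 1.35, 1.11 and 0.801 CPM with shRela-2. The shRela-1 samples lay below every other sample. The change with shRela-1 was -0.89 ± 0.25 (edgeR's quasi-likelihood test, adjusted p = 0.0281), which was lost without replicate 2 (0.0857) or 3 (0.0880) of shScr or replicate 3 of shRela-1 (0.101) (edgeR adjusted p). With shRela-2 it was -0.02 ± 0.24 (edgeR adjusted p = 0.957). Il18bp, which neutralizes IL-18, stood at 1.24 ± 0.0306 CPM in shScr, 1.5 ± 0.100 with shRela-1 and 1.28 ± 0.0151 with shRela-2. The IL-36 cytokine Il1f9 (Il36g) stood at 0.392 ± 0.135 CPM in shScr. Il1f6 (Il36a), Il1f5 (Il36rn) and Il1f10 had at most 2, 2 and 7 counts in a library, and Il1f8 (Il36b) was at 0 in all 9.

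Genes that IL-1 can induce in fibroblasts, such as chemokines, fell mostly with shRela-2. Of 25 tested, 16 fell with shRela-2 and 0 rose, where 15.4% of all genes tested fell and 15.4% rose, and the median was -0.72 on the log2 scale. With shRela-1, 4 fell and 0 rose, where 12.4% of all genes fell and 12.3% rose, and the median was -0.06. The count of 4 lies near that background. By DESeq2 and by limma voom it was 6, and leaving out a library gave 4 to 6 by edgeR. The count of 16 that fell with shRela-2 was 15 by DESeq2 and by limma voom. Leaving out a library gave 13 to 16 by edgeR. The medians over all genes tested were -0.00 and 0.00. Unadjusted, 1 rose with shRela-2 and 4 with shRela-1. Between the hairpins, 14 of the 25 were lower and 1 was higher with shRela-2, where 19.9% of all genes were lower and 20% higher, and 17 and 1 with the block. DESeq2 called 1 riser in each and limma voom 0 and 1. The block gave 20 that fell and 1 that rose under shRela-2, and 8 and 6 under shRela-1, where with the block 22.2% of all genes fell and 22.2% rose under shRela-2, and 18.9% and 20.4% under shRela-1. The count of 0 risers became 1 without shRela-2 replicate 3 for shRela-2, and for shRela-1 it became 2 without shScr replicate 1, 1 when shRela-1 replicate 2 was left out and 2 when shRela-2 replicate 1 was. Many of these genes are NF-kB targets, and the list does not separate response to IL-1 from other inputs to NF-kB.

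Ccl2, a chemokine for monocytes, stood at 234 ± 17.6 CPM in shScr, 151 ± 5.51 with shRela-1 and 55.7 ± 3.95 with shRela-2 (SD, n = 3). It fell with both, by 0.63 ± 0.064 and 2.07 ± 0.067 on the log2 scale (edgeR's quasi-likelihood test, adjusted p = 6.24e-05 and 4.76e-08). Nfkbia, the NF-kB inhibitor that NF-kB itself induces, fell with both as well, by 0.46 ± 0.063 and 0.63 ± 0.063 (edgeR adjusted p = 3.87e-04 and 4.59e-05). Ccl7, another monocyte chemokine, fell with shRela-2 from 207 ± 19.8 to 60.3 ± 11.4 CPM and stood at 202 ± 25.7 CPM with shRela-1. Tnfaip3, which ends signalling to NF-kB, also fell with shRela-2, from 14.7 ± 0.855 to 7.20 ± 0.784 CPM, and stood at 15.6 ± 0.583 CPM with shRela-1. Ccl20 changed by -2.31 ± 0.29 with shRela-2 (edgeR adjusted p = 2.12e-04) and by -0.72 ± 0.26 with shRela-1, which was not called (edgeR adjusted p = 0.0743) but was without shRela-1 replicate 2 (0.00706), with the block (2.55e-04), by DESeq2 (adjusted p = 0.0250) and by limma voom (0.0247). Ptges, a prostaglandin E synthase, fell with shRela-1, from 82.3 ± 2.89 to 50.01 ± 2.2 CPM. With shRela-2 it stood at 90.6 ± 4.81 CPM, not called in the fit without the block (edgeR adjusted p = 0.0511) and called as higher with it (0.00576), without shRela-2 replicate 3 (0.0199) and by DESeq2 (adjusted p = 0.0474).

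The signalling genes below MYD88 moved in both directions. Of 22 tested, 3 rose and 5 fell with shRela-1, and 6 rose and 3 fell with shRela-2. Of all genes tested, 12.3% rose and 12.4% fell with shRela-1, and 15.4% did each with shRela-2, so the 3 that rose with shRela-1 and the 3 that fell with shRela-2 lie near the background. With the block the counts were 7 and 7, and 9 and 4. Of all genes tested, the block called 20.4% up and 18.9% down with shRela-1, and 22.2% each way with shRela-2. The 5 became 3 without shScr replicate 1, shScr replicate 3 or shRela-1 replicate 2, and the 6 became 3 without shScr replicate 1 and 2 without shScr replicate 3 or shRela-2 replicate 2. Medians were -0.00 and 0.10 on the log2 scale. The largest change was in Ikbkb, the kinase that marks NF-kB inhibitors for destruction, which fell with shRela-1 from 51.3 ± 1.71 to 20.8 ± 0.734 CPM and stood at 48.3 ± 1.99 CPM with shRela-2. Tollip, an inhibitor of IL-1 receptor signalling, fell with shRela-1 from 89.6 ± 3.09 to 52.1 ± 1.42 CPM and rose with shRela-2 to 101 ± 2.29 CPM. Map3k3 did the reverse, at 69.5 ± 1.64, 78.9 ± 1.98 and 46.5 ± 1.48 CPM. Irak2, a kinase recruited by MYD88, rose with shRela-1 by 0.45 ± 0.059 (edgeR's quasi-likelihood test, adjusted p = 3.39e-04) and stood at -0.07 ± 0.060 with shRela-2. Chuk, the partner kinase of Ikbkb, changed by -0.24 ± 0.064 and -0.30 ± 0.065 (edgeR adjusted p = 0.0210 and 0.00516), and the first was lost without shScr replicate 1 (0.0582), shScr replicate 3 (0.0556) or shRela-1 replicate 2 (0.0678). Map3k7 (TAK1), the kinase above Ikbkb and Chuk, rose with both hairpins, with shRela-1 by 0.28 ± 0.033 and with shRela-2 by 0.11 ± 0.033 (edgeR adjusted p = 1.90e-04 and 0.0296), and the hairpins differed by -0.17 ± 0.033 (edgeR adjusted p = 0.00231). The rise with shRela-2 was lost without replicate 1 (0.0660), 2 (0.0603) or 3 (0.0940) of shScr, without replicate 2 (0.0879) or 3 (0.0815) of shRela-2, or with no filter on low counts (0.0523), each an edgeR adjusted p.

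Of 16 genes of cytokine processing and the inflammasome, 1 rose and 1 fell with shRela-1, and 2 rose and 3 fell with shRela-2. Of all genes tested, 12.3% rose and 12.4% fell with shRela-1, and 15.4% did each with shRela-2, so these counts lie at or near the background. With the block the counts were 3 and 3, and 5 and 4, where 20.4% of all genes rose and 18.9% fell with shRela-1. With shRela-2 the block called 22.2% of all genes in each direction. The 1 that fell with shRela-1 became 2 without replicate 3 of shRela-1 or replicate 1 of shRela-2. The 3 became 0 without shScr replicate 1, and 1 without shScr replicate 3 or shRela-2 replicates 2 or 3. Medians were -0.00 and 0.02 on the log2 scale. Gsdmd, the pore through which IL-1 beta leaves cells, fell with shRela-1 from 19.8 ± 1.55 to 14.2 ± 1.35 CPM and stood at 21.2 ± 3.27 CPM with shRela-2. Txnip, an activator of the NLRP3 inflammasome, rose with shRela-1 by 0.43 ± 0.096 (edgeR's quasi-likelihood test, adjusted p = 0.00862). Capns1, the small subunit of the calpains that process IL-1 alpha, rose with shRela-2 by 0.20 ± 0.033 (edgeR adjusted p = 0.00103), and Casp8 by 0.25 ± 0.055 (edgeR adjusted p = 0.00573). With shRela-1 the change of Capns1 was called with the block alone (0.07 ± 0.025, edgeR adjusted p = 0.0244, against 0.141 without it).

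In the fit without the block, the 3 falls of processing genes with shRela-2 depended on single libraries. Nlrp3, the inflammasome sensor, changed by -0.91 ± 0.27 (edgeR's quasi-likelihood test, adjusted p = 0.0254), and the call was lost without shScr replicate 1 (0.0520), 2 (0.0537) or 3 (0.0696) or shRela-2 replicate 1 (0.0836) or 2 (0.0857). Casp4, a caspase that cleaves gasdermin D, changed by -1.07 ± 0.28 (edgeR adjusted p = 0.0154), lost without shScr replicate 1 (0.0505) or shRela-2 replicate 2 (0.0589) or 3 (0.0605). Txnip changed by -0.29 ± 0.096 (edgeR adjusted p = 0.0450), lost without replicate 1 (0.147) or 3 (0.101) of shScr, replicate 3 of shRela-1 (0.0660), or shRela-2 replicate 2 (0.156) or 3 (0.115). With all 9 libraries and the block, the 3 falls with shRela-2 were called (edgeR adjusted p = 7.84e-04 for Nlrp3, 9.40e-06 for Casp4 and 3.84e-08 for Txnip). With shRela-1 the block called Nlrp3 (-0.68 ± 0.20, edgeR adjusted p = 0.00966) and Casp4 (-0.55 ± 0.16, edgeR adjusted p = 0.00760), which the fit without it did not (0.100 and 0.181). Without the block, Nlrp3 was called with shRela-1 on leaving out shRela-1 replicate 3 (0.0359), and Casp4 on leaving out shRela-2 replicate 1 (0.0343) (edgeR adjusted p).

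**Figure D5:**
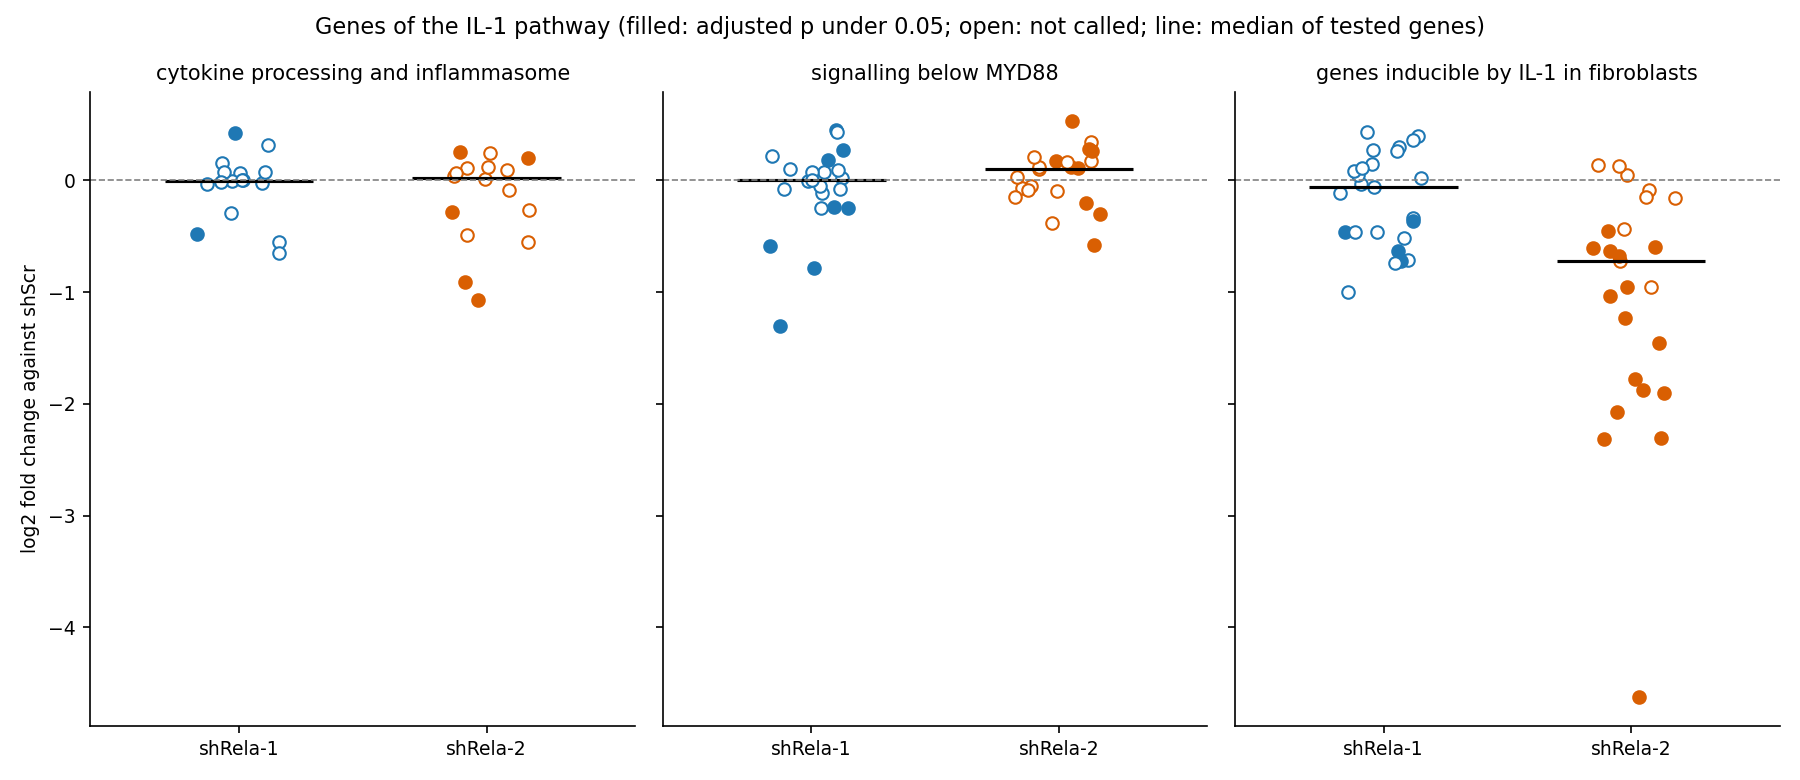
Each circle is the log2 fold change of 1 gene against shScr, for the 3 pathway lists and both hairpins; filled circles passed an adjusted p of 0.05 and the line is the median of the tested genes. The median of the inducible genes is -0.72 with shRela-2 and -0.06 with shRela-1, and the lowest point is Lcn2 with shRela-2, at -4.62. Lcn2 is near the floor, with 22, 16 and 22 counts in shScr and 0, 2 and 0 with shRela-2.

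Across the 9 libraries, which share 3 hairpins and 3 replicate numbers, the log2 CPM of each gene was set beside that of other genes. Tested genes of low average level, and those with clone-type or predicted-gene names, were left out of the ranking by similarity. Il1rl1 and Il1r1 followed each other, with Pearson's r of 0.911, while Il1rap had r of 0.710 with Il1rl1 and 0.671 with Il1r1. Il33 ran against Il1r1, with r of -0.781, and Myd88 had r between -0.03 and 0.30 with the other tested genes of the set. Among the genes ranked, the most similar to Il1rl1 were Uck2, a uridine-cytidine kinase (0.994), and Lrig1, a membrane protein that restrains growth factor receptors (0.982). Lrig1 stood at means of 136, 116 and 96.4 CPM in shScr, shRela-1 and shRela-2, the order seen for Il1rl1. Il1rap was most like Hnrnpul1, an RNA-binding protein (0.992), and Mki67, the marker of cells in cycle (0.991). Mki67 stood at means of 19.2 CPM in shScr, 25.01 with shRela-1 and 12.9 with shRela-2. Its part in the levels of Il1rap was not tested. Il1rn was closest to Prrx2, a homeobox factor of mesenchyme (0.979), and Vav1, a signalling protein of blood cells (0.977). Il1r1 was closest to Furin, a protease (0.947), and Rbpj, the DNA-binding protein of Notch signalling (0.945). For Il33 the nearest were Ces2e (0.957) and Klhl29 (0.956), and for Myd88 Samd9l (0.936) and Wars2 (0.921).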

How the data were processed

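Per the labels' protocols, column-purified total RNA was used for 9 TruSeq RNA v2 libraries. The authors deposited a table of raw counts, with genes by symbol and 1 column per sample. Per the submitters' processing notes the tools were featureCounts 1.4.6 (Subread), Bowtie2 2.2.6 and TopHat2 2.0.14 with mm10, and their settings were not given. Low counts were more often even than odd (2764 values of 1 and 7984 of 2). Whether mates were counted separately is not given, so precision may be lower than the counts imply.

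Samples were grouped by title. No replicates were alike within sampling noise (chi-square over its degrees of freedom was 11.9 to 112). The test was that of edgeR 4.0.16 (R 4.3.3), after filterByExpr (minimum count 10) and TMM scaling, with glmQLFit on all 9 samples and a mean for each group. Two-sided glmQLFTest p-values were adjusted by Benjamini-Hochberg over 15369 genes, with a threshold of 0.05, and the script was tested on simulated data. Titles number the replicates. Deviations from group means correlated positively in 9 of 9 same-numbered pairs (r 0.189 to 0.415). In the 18 other pairs r was -0.306 to 0.0459. Centring on group means lowers these when same-numbered pairs correlate positively, so they are not separate evidence of pairing. The numbers were taken to pair the samples in the fit with the block. The main fit did not pair them, and calls lost on leaving out a library are from fits without the block. CPM used TMM-scaled totals.

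Alternatives were the replicate block, RLE scaling, DESeq2 1.42.0, voom of limma 3.58.1, no filter and leaving out each library. The members and lists were chosen with earlier results of these data known. The named genes were all 8 members, Rela and other family genes with their levels. Also named were up to 6 called genes per pathway list, by smallest p in the mean contrast. The 2 genes nearest each member by r over samples, among the genes ranked, were named too. Itgam, Lcn2, Rora, Gata3 and Il2rg were named after their values were seen. Coordinates and exon lengths are from GENCODE M21 (mm10), which may differ from the annotation the authors used. Start windows are from RefSeq (GRCm38.p6), and all 8 members matched.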

Additional observations from a re-analysis of the deposited data

Results flagged for a closer look

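For 2 genes the effects of the hairpins against the same target differed by a direct test of shRela-2 against shRela-1. Il1rap was lower with shRela-2 by -0.77 ± 0.095 on the log2 scale (SE, edgeR's quasi-likelihood test, Benjamini-Hochberg adjusted p = 9.49e-05), with all 3 shRela-2 samples below all 3 shRela-1 samples. Il1rl1 was lower by -0.44 ± 0.16 (edgeR adjusted p = 0.0495) with overlapping groups, and lower in 3 of 3 same-numbered pairs. Between the hairpins 39.9% of all genes tested differed. What differs between the hairpins beyond Rela was not tested.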

How the results depend on the processing

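With the replicate block, the tested members that fell numbered 1 with shRela-1, 4 with shRela-2, 4 between the hairpins and 3 in their mean against shScr. The block also raised the genes changed from 3799 to 6034 with shRela-1, from 4742 to 6830 with shRela-2, from 3507 to 5763 in the mean and from 6134 to 7974 between hairpins. RLE scaling, DESeq2 and limma voom each left 1 member that fell between the hairpins, Il1rap. Leaving out 1 library gave 0 to 1 members that rose with shRela-1. It gave 2 to 3 that fell with shRela-2, 0 to 1 that fell in the mean and 1 to 2 that fell between hairpins. Genes changed then ran from 2329 (without shScr replicate 3) to 3335 in the mean, 2745 to 3824 with shRela-1, 3766 to 4757 with shRela-2 and 5280 to 6152 between hairpins. Of 336 values for the tested members under these alternatives, 308 kept their side of the threshold, 20 lost a call, 8 gained one and 0 reversed a called direction. Uncalled values could change sign and still count as kept. For Il1rn with shRela-1 the log2 fold change was 0.08 in the main fit and ran from -0.31 to 0.55 on leaving out a library. The counts for pathway lists and single pathway genes under these alternatives were chosen after seeing the data. Il1a and Il1b, with at most 12 counts in a library, are limited by depth. The cause of these shifts was not tested.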
